A study of Mus musculus with 48 samples.

Results

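The mitochondrially encoded transcripts are the genes of the mitochondrial chromosome, chosen here as every gene of the deposited count table whose symbol begins with mt-. This rule takes 37 of the 55486 genes with an identifier. They are 13 protein-coding genes, 2 ribosomal RNA (rRNA) genes and 22 transfer RNA (tRNA) genes. 28 of them lie on the strand annotated as plus and are called heavy-strand genes here, after the promoters that transcribe them. The other 9, mt-Nd6 and 8 tRNA genes, lie on the minus strand and are called light-strand genes. The coordinates of all 37 were identical to those of GENCODE release M21 on GRCm38.

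Bulk RNA-seq was carried out on 48 samples from mice of the strain labelled QPCTL-KO C57/Bl6JR, which were homozygous for a knockout of QPCTL, a Golgi glutaminyl cyclase, or wild-type at that allele as littermates. Baseline mice of 10 to 15 weeks gave whole spleen and whole bone marrow, with 4 knockout and 4 wild-type samples per organ. Cells lacking surface CD45 were sorted from tumours 14 days after inoculation of B16F10 melanoma cells, with 6 knockout hosts carrying knockout tumour cells and 6 wild-type hosts carrying wild-type tumour cells. B16F10 is an established mouse melanoma line, and the gate removes leukocytes but keeps stromal cells. Each count column is named by tissue and number without its genotype, so the 8 spleen, 8 bone marrow and 12 tumour columns each combine both genotypes, and the share of genotype in any spread cannot be told apart. The 20 lymph node columns do not show which are baseline and which come from tumour-bearing mice, and they are not analysed here. The labels do not tie a column to an animal, so spleen and bone marrow columns may share mice, and p-values measure the spread between columns.

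Mammalian mitochondrial DNA is transcribed on both strands into long RNAs that are cut at the tRNAs which punctuate them. The heavy-strand transcript yields both rRNAs, most tRNAs and all mitochondrial mRNAs but one. The light-strand transcript yields the mRNA of ND6, a subunit of respiratory complex I, and a minority of the tRNAs, and most of its length is antisense to heavy-strand genes and is normally degraded quickly. The ratio of light-strand to heavy-strand counts was used as a measure of how reads were assigned to strands. The libraries were made with a kit that selects polyadenylated RNA and marks strand. The strand setting used in counting is not given in the sources used here.

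The genes mt-Nd5 and mt-Nd6 lie tail to tail and carry most of the mitochondrial counts. mt-Nd5, a heavy-strand gene of complex I, occupies MT:11742-13565, and mt-Nd6 occupies MT:13552-14070 on the other strand. Their last 60 bases are shown 5′ to 3′, each on its own strand (GENCODE M21 transcripts, GRCm38, MT:13506-13565 plus and MT:13552-13611 minus), to show how little sequence the annotated intervals share. The capitals mark the 14 bases that the intervals have in common, MT:13552-13565, which read as reverse complements. No heavy-strand tRNA gene lies between mt-Nd5 and mt-Cytb, and where RNA of mt-Nd5 ends was not tested.

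mt-Nd5: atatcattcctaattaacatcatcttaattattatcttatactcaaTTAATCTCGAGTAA
mt-Nd6: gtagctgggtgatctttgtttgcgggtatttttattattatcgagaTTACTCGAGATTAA

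The light-strand tRNA genes with the highest mean level, those for proline, glutamine, glutamate and cysteine, are shown whole from the same source, since they give the other reading of the light strand. Their positions are MT:15356-15422, MT:3772-3842, MT:14071-14139 and MT:5192-5257, all on the minus strand.

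mt-Tp: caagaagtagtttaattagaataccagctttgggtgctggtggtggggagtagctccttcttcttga
mt-Tq: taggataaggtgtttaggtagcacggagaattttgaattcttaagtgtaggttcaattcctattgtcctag
mt-Te: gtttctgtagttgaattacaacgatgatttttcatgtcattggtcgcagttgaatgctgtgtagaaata
mt-Tc: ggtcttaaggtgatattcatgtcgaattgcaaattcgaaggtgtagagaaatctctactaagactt

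Depth was low throughout. Counted reads per column ranged from 219229 to 626316 in spleen, from 227240 to 637985 in bone marrow and from 54117 to 510363 in tumour cells. The mean column held 1.91% of the average number of reads per sample that the labels give. The tumour column with 54117 counts stood apart from the other 11, the next of which held 181672. Summed bone marrow myeloid markers reached 14294 to 36269 CPM (counts per 1000000 counted reads) in bone marrow and 27.4 to 1830 in spleen. Summed lymphocyte, red pulp and erythroid markers had medians of 451, 261 and 1210 CPM in spleen and 97.0, 72.6 and 134 in bone marrow. Melanoma markers summed to 1848 to 6343 CPM in tumour cells, 28.2 to 269 in spleen and 39.2 to 100 in bone marrow. In the organs Pmel had medians of 213 and 86.1 CPM, while Mlana, Tyr and Dct had medians of 0. Leukocyte markers in tumour cells summed to 0 to 24.4 CPM, and fibroblast and endothelial markers to at most 945 CPM. No 2 columns were identical.

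mt-Nd6 was the mitochondrial gene with the highest level per kilobase in every column. In raw counts the tumour column with 54117 counts was an exception, with 511 counts of mt-Nd5 and 396 of mt-Nd6. The 28 columns held 165988 mitochondrial counts, and mt-Nd6 took 107125 of them, or 64.5%. The 12 heavy-strand coding genes together took 33.5%, the rRNA genes 1.63%, the 8 light-strand tRNA genes 0.267% and the 14 heavy-strand tRNA genes 0.0175%. mt-Nd6 was higher per kilobase than each of the other 36 members in 28 of 28 columns, and it was among the 10 genes of any kind with the most counts in 27 of 28.

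On the scale of CPM per kilobase, mt-Nd6 reached 28466 ± 9562 (SD, n = 8) in spleen, 22444 ± 3907 (SD, n = 8) in bone marrow and 15651 ± 5727 (SD, n = 12) in tumour cells. Its neighbour mt-Nd5 followed with 2703 ± 639 in spleen, 1289 ± 200 (SD) in bone marrow and 1406 ± 1192 (SD) in tumour cells. The ratio of mt-Nd6 to mt-Nd5 per kilobase ran from 7.24 to 14.6 in spleen, from 14.3 to 20.6 in bone marrow and from 2.72 to 28.9 in tumour cells. So the light-strand gene exceeded the heavy-strand gene it abuts in all 28 columns, and the tumour columns varied most. The lowest ratio, 2.72, belonged to the tumour column with 54117 counts, and the other 11 began at 7.17.

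**Figure D1:**
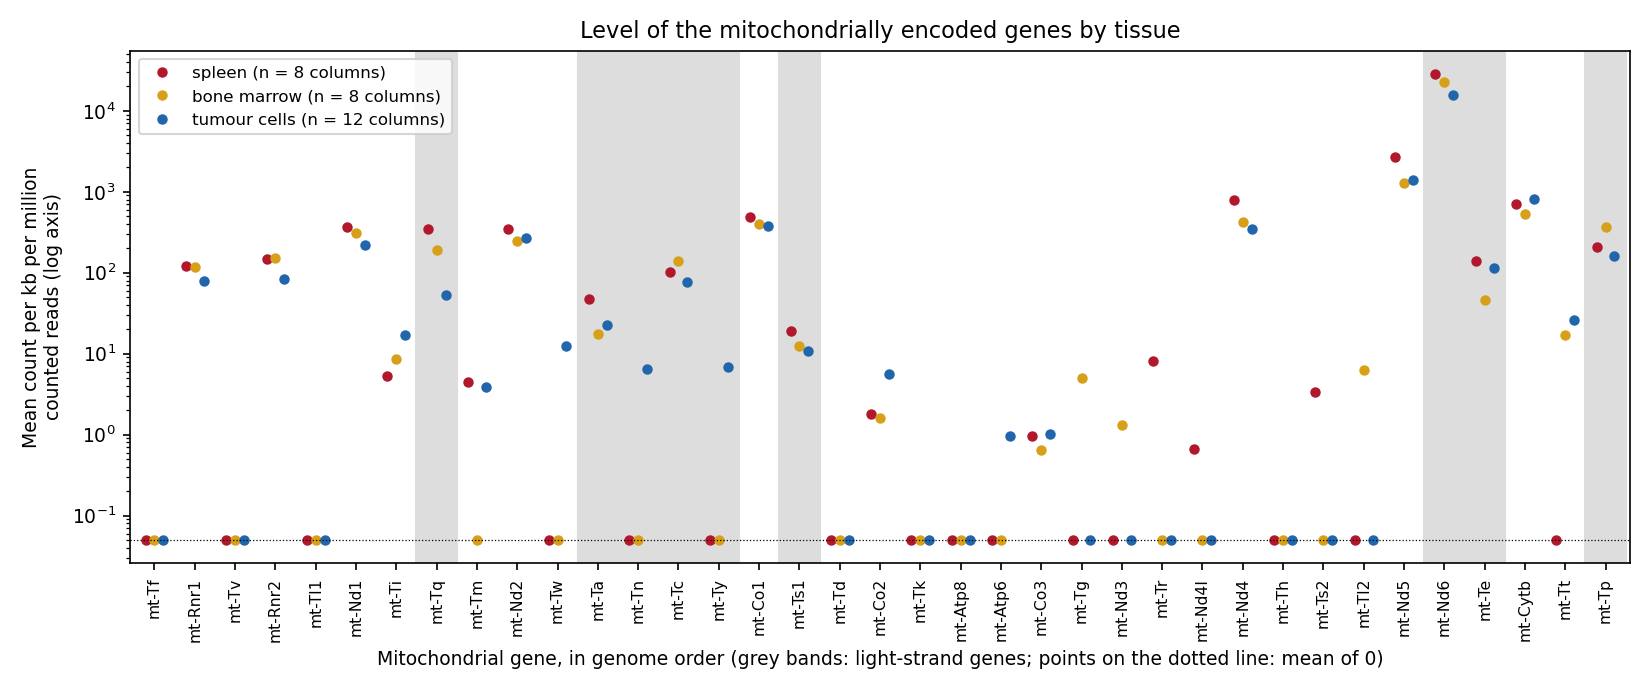
Mean CPM per kilobase (log axis) of the 37 mitochondrial genes in genome order, with 1 point per tissue (8 spleen, 8 bone marrow and 12 tumour columns) and light-strand genes on grey bands. mt-Nd6 stands above all other genes at 15651 to 28466, and points on the dotted line are means of 0.

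Among heavy-strand coding genes, mt-Nd5 led in 27 of 28 columns, and the level differed widely along the genome. The mean over 28 columns was 1743 CPM per kilobase for mt-Nd5, 704 for mt-Cytb (cytochrome b of complex III), 497 for mt-Nd4, 417 for mt-Co1 (the catalytic subunit of cytochrome oxidase), 285 for mt-Nd2 and 285 for mt-Nd1. The rRNA genes, which are the most abundant mitochondrial RNAs in total cellular RNA, reached 103 CPM per kilobase for mt-Rnr1 and 122 for mt-Rnr2 here. The cause of their low level was not tested. A stretch in the middle of the chromosome was close to empty. There mt-Co2 and mt-Co3, cytochrome oxidase subunits, had means of 3.40 and 0.893 CPM per kilobase. The ATP synthase subunit mt-Atp6 had 0.413, and the complex I subunits mt-Nd3 and mt-Nd4l had 0.373 and 0.192. The other ATP synthase gene, mt-Atp8, had no count in any column, which allows up to 0.312 CPM over the 28 columns. That limit is not divided by gene length, so it cannot be set beside the values per kilobase.

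Those near-empty genes have near-identical copies in the nuclear genome. Annotated nuclear transcripts of at least 99% identity lie side by side at chromosome 1:24611535-24616197 of GRCm38, on the minus strand. They cover 99.6% of mt-Co2, 99.6% of mt-Atp6, 99.9% of mt-Co3, 99.1% of mt-Nd3 and 98.99% of mt-Nd4l. The same copies cover 63.6% of mt-Nd4, 31.3% of mt-Co1 and 21.1% of mt-Atp8, and 0% of every other member. Only annotated transcripts were searched, so the nuclear sequence between them is not covered by these values. On the mitochondrial chromosome mt-Ts1, mt-Td, mt-Tk, the rest of mt-Atp8, mt-Tg and mt-Tr lie between the copied genes. Their cover may therefore be understated. The 5 genes covered almost whole held 26 counts in all 28 columns together. Reads that match both places cannot be told apart by sequence, so the values of at least the 8 covered genes are uncertain. How the authors treated such reads is not given in the sources used here. Below 99% identity, a copy of mt-Co1 was 97.6% identical over all 1545 bases, and one of mt-Nd2 was 96.7% identical over 510 bases. More distant nuclear copies of mt-Nd5, mt-Nd6 and mt-Cytb were 92.4%, 93.6% and 92.9% identical over their longest match, and a shorter match of mt-Nd5 was 95.2% identical.

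The copies on chromosome 1 were near-empty as well, with 0 to 5 counts over the 28 columns for 6 of the 7 annotated transcripts. Gm28438, the copy of mt-Nd3, held 176 counts, against 2 for mt-Nd3. The copy differs from mt-Nd3 by the substitution T3C, counted from the first base of mt-Nd3. The first 33 bases of both genes are shown with that base in capitals, to show how alike they are (GENCODE M21 transcripts, GRCm38, MT:9459-9491 plus and chromosome 1:24613087-24613119 minus).

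mt-Nd3: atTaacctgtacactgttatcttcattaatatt
Gm28438: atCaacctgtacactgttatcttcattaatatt

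The tRNA genes divided by strand in the same direction as the coding genes, on few counts. The 8 light-strand tRNA genes held 443 counts and the 14 heavy-strand ones 29, and the light-strand sum was larger in 28 of 28 columns, with 1 to 32 counts per column against 0 to 4. mt-Tp had 163 counts and was seen in 26 columns, mt-Tq had 126 counts in 23, mt-Tc 70 in 23 and mt-Te 57 in 24. The heavy-strand tRNA genes with the highest means were mt-Tt with 12 counts, mt-Ti with 7, mt-Tw with 3 and mt-Tm with 2. 6 of the 14 heavy-strand tRNA genes (mt-Tf, mt-Tv, mt-Tl1, mt-Td, mt-Tk and mt-Th) had no count in any column. Of the light-strand tRNA genes none was empty, although mt-Tn and mt-Ty had 1 count each, mt-Ts1 8 and mt-Ta 17. The other heavy-strand tRNA genes, mt-Tg, mt-Tr, mt-Ts2 and mt-Tl2, had 1 or 2 counts each. Among the heavy-strand tRNA genes mt-Td, mt-Tk, mt-Tg and mt-Tr lie between genes with nuclear copies, as does mt-Ts1 of the light strand. Whether shared reads lowered their counts was not tested.

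The strand ratio was expressed per column as an index, the log2 ratio of mt-Nd6 to the median of the 12 heavy-strand coding genes in counts per kilobase, with 0.5 added to each count. The index ran from 6.79 over a median of 7.34 to 8.88 in spleen, from 7.12 over 7.46 to 8.17 in bone marrow and from 5.99 over 7.11 to 8.74 in tumour cells. The groups overlapped, and no pair of tissues passed exact two-sided permutation tests adjusted with Benjamini-Hochberg over 9 tests (3 measures in 3 pairs). Bone marrow exceeded spleen by 0.07 (exact permutation, adjusted p = 0.805), tumour cells minus spleen was -0.28 (adjusted p = 0.516) and tumour cells minus bone marrow was -0.35 (adjusted p = 0.436).

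The result changed with the heavy-strand genes that served as the base. With only mt-Nd5 and mt-Cytb, which flank mt-Nd6, the index was 4.01 ± 0.35 (SD, n = 8) in spleen, 4.61 ± 0.26 (SD, n = 8) in bone marrow and 3.88 ± 0.73 (SD, n = 12) in tumour cells. On that base bone marrow lay above spleen by 0.60 (exact permutation, adjusted p = 0.00986) and tumour cells lay below bone marrow, at -0.74 (adjusted p = 0.0208), while the groups still overlapped. Of the 12 genes in the first base 6 are well filled and 6 near-empty, so their median falls between those sets and depends on the pseudocount. With a pseudocount of 5 only tumour cells minus bone marrow passed, at -0.65 (exact permutation, adjusted p = 0.0376). With the sum of the 12 genes no pair passed. Bone marrow minus spleen was then 0.44 (exact permutation, adjusted p = 0.0526) and tumour cells minus bone marrow -0.58 (adjusted p = 0.0700). With the median of the 6 heavy-strand coding genes under 50% covered by such a copy, a base chosen after the data were seen and one that includes the empty mt-Atp8, bone marrow minus spleen was -0.03 (exact permutation, adjusted p = 0.926).

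The tRNA strand index, the log2 ratio of the mean count per kilobase of light-strand to heavy-strand tRNA genes, was 5.17 ± 0.94 (SD, n = 8) in spleen, 4.81 ± 0.97 (SD, n = 8) in bone marrow and 3.38 ± 1.19 (SD, n = 12) in tumour cells. It was lower in tumour cells than in spleen, at -1.79 (exact permutation, adjusted p = 0.0148), and lower than in bone marrow, at -1.43 (adjusted p = 0.0405), and the groups overlapped in both. Without the tumour column of 54117 counts the difference from bone marrow was -1.34 (exact permutation, adjusted p = 0.0646). With medians over tRNA genes in place of means the differences were -0.62 (adjusted p = 0.221) and -0.38 (adjusted p = 0.439). With a pseudocount of 5 the differences were -0.97 (exact permutation, adjusted p = 0.00857) and -1.04 (adjusted p = 0.000143, where the groups did not overlap), so the size depends on the pseudocount. Tumour columns held a median of 9 light-strand tRNA counts against 22.5 in both organs, at median totals of 305147, 321211 and 424438 counts in tumour cells, spleen and bone marrow.

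Nuclear genes offered a strand measure that shares no gene with the mitochondrial one. In 1564 pairs of an annotated antisense gene and the protein-coding gene whose exons it overlaps by at least 50 bases, the antisense gene had more counts than its partner in 65.7% to 87.9% of the pairs with at least 10 counts, over the 28 columns. Genes whose exons overlap exons of a protein-coding gene of the opposite strand are 8.99% of all genes and held 61.2% to 83.8% of the counts. In every column more pairs leaned to the antisense gene than to its coding partner. Which strand the reads came from was not tested, since reads were not used.

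The degree of that lean moved with the mitochondrial index within tissues. The log2 ratio of summed antisense to summed partner counts was set against the mt-Nd6 index on the 6 heavy-strand coding genes. That base was one of several and was chosen after the data were seen, and the correlation is given for it alone. In tumour cells Pearson's r was 0.95 (n = 12, permutation p = 1e-05, the smallest 100000 resamples can give, adjusted over 3 tissues 3e-05) and Spearman's rho was 0.91 (permutation p = 9e-05, adjusted p = 0.00027). Without the 2 columns farthest from the median nuclear ratio r was 0.90 (n = 10). In bone marrow r was 0.85 (n = 8, exact permutation p = 0.00880, adjusted p = 0.0132) and rho 0.86 (exact permutation p = 0.0107, adjusted p = 0.0161), with r = 0.97 without the 2 farthest. In spleen r was 0.76 (n = 8, exact permutation p = 0.0346, adjusted p = 0.0346), rho was 0.52 (exact permutation p = 0.197, adjusted p = 0.197), and r was -0.06 without the 2 farthest columns, so the spleen relation rests on those columns. In tumour cells both measures also tended to rise with column number. The index ran from 4.57 to 5.28 in the first 6 columns by number and from 5.62 to 7.12 in the last 6. The nuclear ratio ran from 1.691 to 2.266 and from 2.202 to 2.769 in the same sets. The permutation tests treat columns as exchangeable, so they do not allow for such an order. The columns of a tissue share a gate or organ but mix genotypes and depths. The part of genotype, depth or column order in the relation was not tested.

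**Figure D2:**
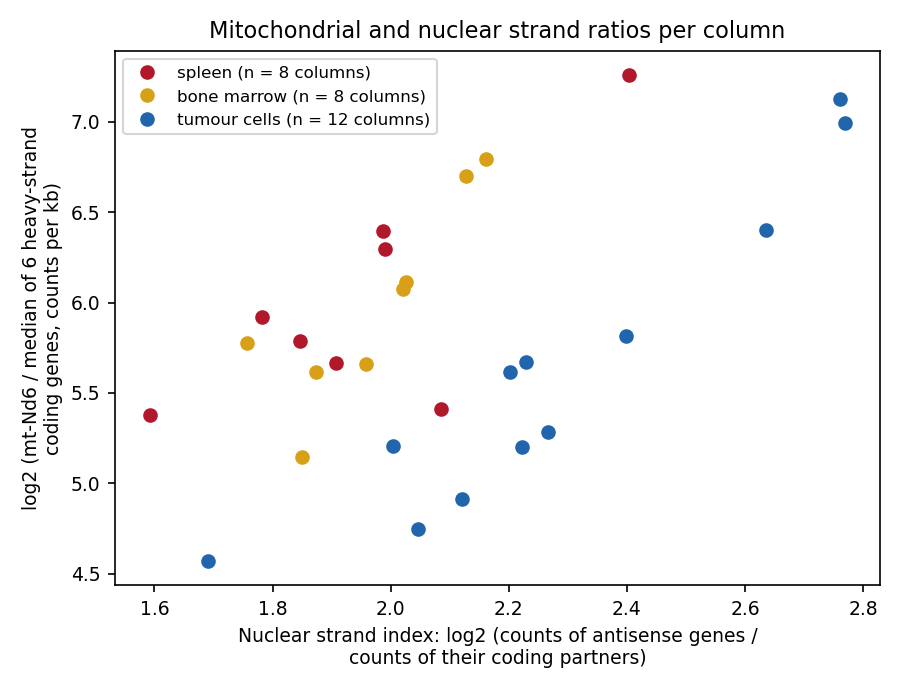
Per-column log2 ratio of mt-Nd6 to the median of 6 heavy-strand coding genes in counts per kilobase (vertical) against the log2 ratio of nuclear antisense to partner counts (horizontal), 1 point per column. The 12 tumour columns rise together (r = 0.95), and the spleen relation rests on 2 columns.

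The share of all counted reads that came from the 37 genes was highest in spleen. It ran from 1.02% over a median of 2.60% to 2.88% in spleen (mean 2.35% ± 0.643, SD, n = 8), from 1.48% over 1.61% to 2.08% in bone marrow (mean 1.68% ± 0.206, SD, n = 8) and from 0.865% over 1.19% to 2.26% in tumour cells (mean 1.34% ± 0.420, SD, n = 12). All pairs of tissues overlapped. The lowest of the 8 spleen values lay below every bone marrow value, and the highest tumour value was that of the column with 54117 counts, with a 95% exact binomial interval of 2.13% to 2.39% that covers counting error only.

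On the log2 scale tumour cells lay below spleen by a difference of -0.80 (exact permutation, adjusted p = 0.0148), a ratio of 0.576. Bone marrow minus spleen was -0.43 (adjusted p = 0.0775) and tumour cells minus bone marrow was -0.37 (adjusted p = 0.0650), neither past the threshold of 0.05. Without the tumour column of 54117 counts the last difference was -0.44 (exact permutation, adjusted p = 0.0126). In a bulk sample fewer cells of a type and less RNA per cell cannot be told apart.

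The shares of heavy-strand genes and of mt-Nd6 are given apart here. Whether tissue differences were larger on either strand was tested only through the strand indices above, whose results changed with their base. Heavy-strand genes alone gave 0.864% ± 0.204 (SD, n = 8) in spleen, 0.508% ± 0.0750 (SD, n = 8) in bone marrow and 0.527% ± 0.326 (SD, n = 12) in tumour cells, or 0.436% ± 0.0935 (SD, n = 11) without the column of 54117 counts. On these genes bone marrow was lower than spleen, at -0.73 (exact permutation, adjusted p = 0.00986), and tumour cells minus bone marrow was -0.09 (adjusted p = 0.801). mt-Nd6 alone gave 1.48% ± 0.496 (SD, n = 8), 1.16% ± 0.203 (SD, n = 8) and 0.812% ± 0.297 (SD, n = 12) in the same order of tissues. Its share of the mitochondrial counts was 54.3% to 73.4% in spleen, 61.1% to 75.6% in bone marrow and 32.4% to 80.6% in tumour cells, and the 32.4% was again the column of 54117 counts, without which the tumour range began at 52.3%.

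**Figure D3:**
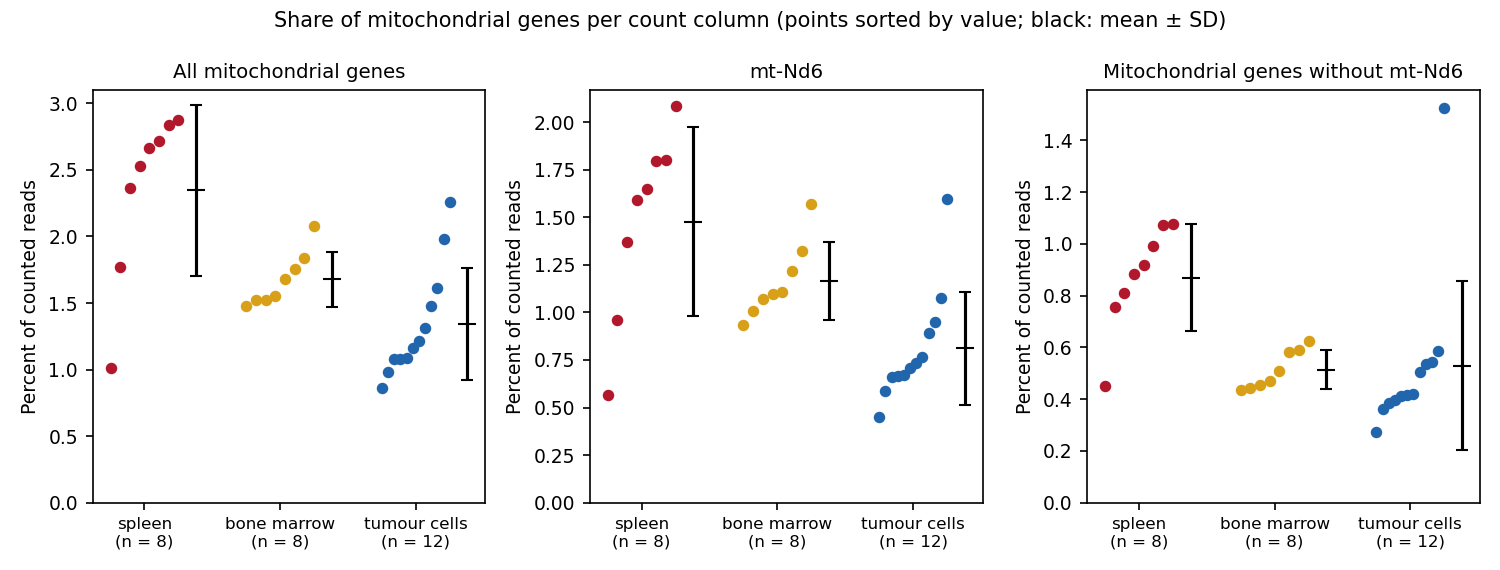
Percent of counted reads per column from all 37 mitochondrial genes, from mt-Nd6 alone and from the other 36 genes, in 8 spleen, 8 bone marrow and 12 tumour columns. Points are sorted by value within a tissue and black bars are mean ± SD. The single tumour point at 1.53% in the right panel is the column with 54117 counts.

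Gene by gene, 9 of the 37 members passed the filter on low counts, among 5143 genes tested with edgeR's quasi-likelihood test. They were mt-Nd6 and the heavy-strand genes mt-Nd5, mt-Nd4, mt-Nd2, mt-Nd1, mt-Co1, mt-Cytb, mt-Rnr1 and mt-Rnr2. The other 28, all tRNA genes and the 6 coding genes with means of 3.40 CPM per kilobase or less, are described above by their counts. All adjusted p-values that follow are from edgeR with Benjamini-Hochberg adjustment over the 5143 genes, and fold changes are log2 ± SE. They describe counts assigned to each gene, and the strand of the RNA behind those counts was not tested.

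In bone marrow 4 of the 9 were lower than in spleen and 0 higher, where 20.1% of all tested genes were lower and 17.8% higher. mt-Nd5 ran from 2237 over a median of 5133 to 5934 CPM in spleen and from 1966 over 2251 to 2979 CPM in bone marrow. Only the lowest spleen column lay within the bone marrow range, and mt-Nd5 fell by 1.19 ± 0.24 (adjusted p = 0.000148). mt-Nd4 ran from 507 over 1065 to 1451 CPM in spleen and from 527 over 590 to 673 CPM in bone marrow, and fell by 1.01 ± 0.18 (adjusted p = 2.06e-05). mt-Nd2 fell by 0.58 ± 0.22 (adjusted p = 0.0319) and mt-Cytb by 0.50 ± 0.19 (adjusted p = 0.0359), and both missed the threshold with library totals in place of TMM factors (adjusted p = 0.114 and 0.147 in edgeR). With no filter on low counts mt-Cytb missed it as well (edgeR adjusted p = 0.0745). The light-strand gene mt-Nd6 was at -0.47 ± 0.24 (adjusted p = 0.123) and did not pass, and neither did 4 heavy-strand genes. mt-Nd1 was at -0.36 ± 0.24 (adjusted p = 0.253), mt-Co1 at -0.40 ± 0.23 (adjusted p = 0.170), mt-Rnr1 at -0.14 ± 0.51 (adjusted p = 0.867) and mt-Rnr2 at -0.06 ± 0.53 (adjusted p = 0.955). The difference between the strands was tested only as the mt-Nd6 index given above.

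The less abundant heavy-strand coding genes overlapped among all 3 tissues. mt-Co1 ran from 465 over 703 to 1298 CPM in spleen, from 339 over 592 to 1004 CPM in bone marrow and from 137 over 571 to 905 CPM in tumour cells. mt-Nd1 ran from 151 over 327 to 607 CPM, from 195 over 294 to 432 CPM and from 60.3 over 207 to 369 CPM in the same order of tissues. mt-Nd2 ran from 117 over 369 to 567 CPM, from 209 over 260 to 302 CPM and from 127 over 241 to 610 CPM. Tumour cells held the lowest median of the 3 tissues for each of these genes.

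In tumour cells 8 of the 9 were lower than in spleen and 0 higher, where 37.3% of all tested genes were lower and 30.2% higher. mt-Nd6 ran from 5660 over 16181 to 20841 CPM in spleen and from 4523 over 7202 to 15953 CPM in tumour cells. The groups overlapped, and mt-Nd6 fell by 0.96 ± 0.22 (adjusted p = 0.000207). mt-Nd4 fell by 1.36 ± 0.17 (adjusted p = 2.38e-09) and mt-Nd5 by 1.13 ± 0.22 (adjusted p = 2.39e-05). mt-Nd1 fell by 0.89 ± 0.22 (adjusted p = 0.00058), mt-Nd2 by 0.52 ± 0.20 (adjusted p = 0.0205) and mt-Co1 by 0.53 ± 0.21 (adjusted p = 0.0254). The last lost its call without the column of 54117 counts (adjusted p = 0.0687 in edgeR), and both missed the threshold with library totals (0.103 and 0.167). mt-Cytb was the exception, at 463 over 764 to 1261 CPM in spleen and 328 over 850 to 1306 CPM in tumour cells, a difference of 0.08 ± 0.17 (adjusted p = 0.702) whose sign changed with other scalings.

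The rRNA genes were lower in tumour cells than in both organs in edgeR. mt-Rnr2 ran from 45.6 over 250 to 386 CPM in spleen, from 115 over 207 to 400 CPM in bone marrow and from 24.6 over 47.3 to 1053 CPM in tumour cells. The value of 1053 came from the column with 54117 counts. mt-Rnr2 fell by 1.56 ± 0.53 against spleen (adjusted p = 0.0114) and by 1.50 ± 0.52 against bone marrow (adjusted p = 0.0133). Without that column the edgeR differences were -2.20 (adjusted p = 1.52e-08) and -2.18 (adjusted p = 1.16e-08). mt-Rnr1 ran from 0 over 121 to 193 CPM in spleen, from 55.4 over 117 to 199 CPM in bone marrow and from 9.86 over 28.5 to 554 CPM in tumour cells. mt-Rnr1 fell by 1.39 ± 0.52 (adjusted p = 0.0198) and by 1.25 ± 0.51 (adjusted p = 0.0316), and without that column the differences were -1.79 and -1.70. DESeq2 with every column did not call either gene in either comparison, with adjusted p from 0.0614 to 0.190.

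Against bone marrow, tumour cells had 1 of the 9 genes higher and 4 lower, where 32.5% of all tested genes were higher and 37.7% lower. The higher gene was mt-Cytb, with 440 over 588 to 797 CPM in bone marrow and a difference of 0.57 ± 0.18 (adjusted p = 0.00389). Besides the rRNA genes, mt-Nd1 fell by 0.53 ± 0.22 (adjusted p = 0.0338) and mt-Nd6 by 0.49 ± 0.22 (adjusted p = 0.0451). Without the column of 54117 counts mt-Nd6 was at -0.40 (edgeR adjusted p = 0.105), and with library totals mt-Nd1 missed the threshold (adjusted p = 0.0764). mt-Nd5, mt-Nd2, mt-Co1 and mt-Nd4 were at 0.06, 0.06, -0.12 and -0.35 (adjusted p = 0.815, 0.808, 0.616 and 0.0649 in edgeR). The signs of mt-Nd5 and mt-Nd2 changed with the processing, and mt-Nd4 passed the threshold under 5 of 7 alternatives, at -0.39 to -0.45. They were RLE factors (adjusted p = 0.0302), no filter (0.0416), only 2 tissues (0.00923) and omission of the column of 54117 counts (0.0176) in edgeR, and DESeq2 (0.0157).

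**Figure D4:**
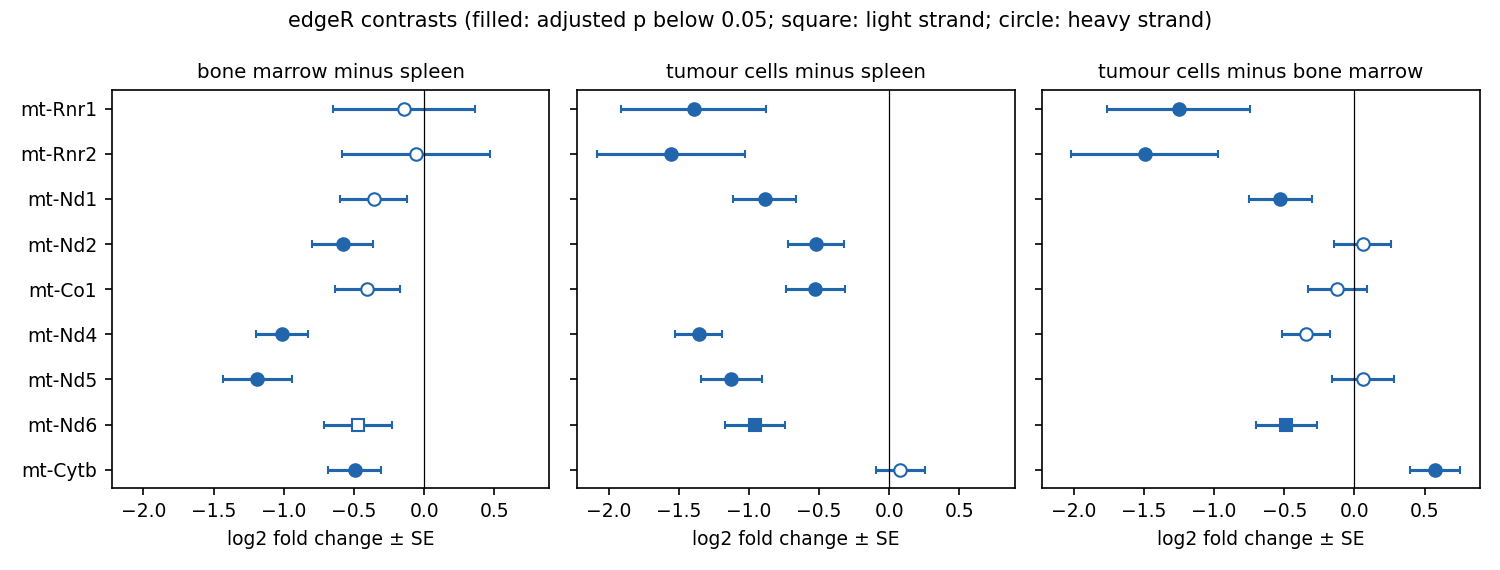
log2 fold change ± SE of the 9 tested mitochondrial genes in the 3 tissue contrasts from edgeR, with filled symbols at adjusted p below 0.05, a square for the light-strand gene mt-Nd6 and circles for heavy-strand genes. mt-Nd4 and mt-Nd5 lie furthest below 0 in bone marrow against spleen.

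mt-Cytb and mt-Nd5 flank mt-Nd6 on the heavy-strand side, and their balance differed among tissues. As a description without a test, the ratio of mt-Cytb to mt-Nd5 per kilobase ran from 0.158 over 0.244 to 0.388 in spleen, from 0.308 over 0.425 to 0.566 in bone marrow and from 0.200 over 0.713 to 1.18 in tumour cells. Without the column of 54117 counts the lowest tumour ratio was 0.303. Both genes lie downstream on the same heavy-strand transcript, on either side of the antisense stretch of mt-Nd6.

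Nuclear genes that transcribe mitochondrial DNA or process its RNA were followed as a list of 38, of which 10 passed the filter. Of these 10, 2 were higher and 2 lower in bone marrow than in spleen, beside 17.8% and 20.1% of all tested genes. In tumour cells 4 were higher and 2 lower than in spleen, beside 30.2% and 37.3%, and 4 higher and 1 lower than in bone marrow, beside 32.5% and 37.7%. These are few genes, and no enrichment was tested. Their median log2 differences were -0.00, 0.23 and 0.16, beside -0.03, -0.10 and -0.08 for all tested genes. All but Ssbp1 of the 10 overlap exons of a coding gene on the opposite strand, so the counts of the pair members cannot be told apart here while the strand setting is unknown.

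Polg2, the accessory subunit of the mitochondrial DNA polymerase, had the largest differences of the list. It was higher in bone marrow than in spleen by 2.71 ± 0.26 (edgeR adjusted p = 2.23e-11), and in tumour cells it fell by 3.96 ± 0.40 against spleen (adjusted p = 1.44e-11) and fell by 6.67 ± 0.34 against bone marrow (adjusted p = 6.47e-21). Its exons overlap those of Milr1, a receptor gene of myeloid cells, by 132 bases, and the bone marrow myeloid markers given above moved with it. Their part in the result was not tested. Mterf4, a factor of mitochondrial ribosome assembly, fell by 2.49 ± 0.44 in bone marrow (adjusted p = 3.62e-05 in edgeR) and fell by 2.52 ± 0.39 in tumour cells (adjusted p = 2.12e-06), both against spleen, and it overlaps Sned1 by 1855 bases.

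The others were smaller. Slirp, which binds and stabilises mitochondrial mRNAs, fell by 0.42 ± 0.17 in bone marrow against spleen (edgeR adjusted p = 0.0420) and was higher in tumour cells than in bone marrow by 0.78 ± 0.16 (adjusted p = 2.88e-05). Fastk was higher in bone marrow than in spleen by 0.49 ± 0.17 (edgeR adjusted p = 0.0178) and in tumour cells than in spleen by 1.09 ± 0.16 (adjusted p = 8.91e-08). Against bone marrow it was higher in tumour cells by 0.60 ± 0.15 (edgeR adjusted p = 0.000665). A form of FASTK in mitochondria is needed for ND6 mRNA. Prorp, the nuclease subunit that cuts the 5′ ends of mitochondrial tRNAs, was higher in tumour cells by 1.23 ± 0.25 against spleen (edgeR adjusted p = 3.59e-05) and by 0.85 ± 0.22 against bone marrow (adjusted p = 0.00099).

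The authors' deposited table compares CD45-negative tumour cells, and it holds 13 of the 37 mitochondrial genes among its 11340 genes. An adjusted p below 0.05 was reached by 2 of the 13, beside 0.644% of all genes there, in the authors' deposited table. The authors' deposited table does not state the direction of subtraction, so its signs order genes against each other and not the genotypes. In the authors' deposited table mt-Nd6 had a log2 fold change of 0.74 (adjusted p = 0.0170) and mt-Rnr1 one of -1.37 (adjusted p = 0.0349). Counts assigned to the light-strand gene mt-Nd6 and to the heavy-strand gene mt-Rnr1 thus passed with opposite signs. The strand of the RNA behind them was not tested.

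7 of the 8 heavy-strand genes in the authors' deposited table had a negative value, with a median of -0.37 and a range from -1.37 to 0.10, beside a median of -0.14 for all its genes. mt-Nd5, the neighbour that abuts mt-Nd6, was the positive one in the authors' deposited table, at 0.10 (adjusted p = 0.752). Of the 5 light-strand genes 2 were positive, mt-Nd6 and mt-Te, the latter at 1.52 (adjusted p = 0.235), and the median of the light strand in the authors' deposited table was -0.25. The 3 negative light-strand genes in the authors' deposited table, mt-Tq, mt-Tp and mt-Tc, lay at -0.25, -0.29 and -0.45, and none of these 4 tRNA genes passed. By sign the strands therefore did not separate as groups there. However, these 4 tRNA genes had medians of only 1 to 3 counts in the 12 tumour columns here. That leaves mt-Nd6 as the only well-counted light-strand gene, so these signs cannot decide whether the strands differ. The mean log2 CPM of mt-Nd6 in the authors' deposited table was 13.04, against a log2 mean CPM of 12.99 in the 12 tumour columns here. So mt-Nd6 had about the same weight in both, although the 2 measures are computed differently. Over all 13 genes the value here minus that in the authors' deposited table ranged from -1.47 for mt-Tq to 1.21 for mt-Rnr2.

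**Figure D5:**
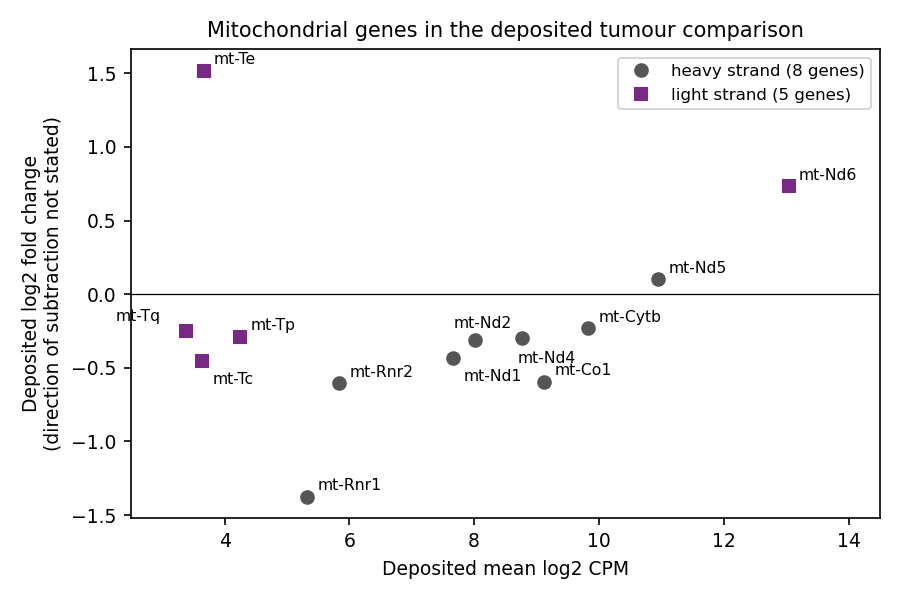
log2 fold change against mean log2 CPM of the 13 mitochondrial genes in the authors' deposited table, with light-strand genes as squares (5) and heavy-strand genes as circles (8). mt-Nd6 at 0.74 and mt-Rnr1 at -1.37 are the 2 genes past an adjusted p of 0.05, and the direction of subtraction is not stated.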

How the data were processed

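Gene counts as deposited by the authors (whole reads per gene, not normalized) were read for 28 of 48 columns, mapped to a tissue by name. The other 20 columns were not used. The submitters' processing notes name HISAT2, edgeR, GRCm38 and mm10, without versions. Neither the counting program nor its strand setting is given in the sources used here. Per the file headers, the table for tumour cells deposited by the authors gives a log2 fold change, a mean log2 CPM, an F statistic (a score) and a p-value with its adjusted form. The row without a gene held 0 counts.

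Counts were tested with edgeR 4.0.16 (TMM, filterByExpr with a minimum count of 10, robust quasi-likelihood F test, limma 3.58.1, R 4.3.3) in a single fit of 3 tissues, with Benjamini-Hochberg adjustment and a threshold of 0.05. The planned contrasts all involved lymph node, so the 3 contrasts used were chosen after the files had been seen, as were the omission of the shallowest tumour column, the 6-gene base of the strand index and its correlation with the nuclear ratio. The members and lists were chosen with earlier results of these data known. The fit was tested on simulated counts for 5143 genes: of 4-fold changes it recovered 92% for bone marrow minus spleen, 89% for tumour cells minus spleen and 92% for tumour cells minus bone marrow, and of 2-fold changes 63%, 70% and 74%. DESeq2 1.42.0, other size factors, no filter, fits of 2 tissues and other bases and pseudocounts (5 for 0.5) were alternatives.

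Nuclear copies were found with BLAST 2.17.0 among GENCODE M21 transcripts, and overlaps with bedtools 2.31.1. Nuclear sequence outside annotated transcripts was not searched. Permutation tests used scipy 1.17.1. Every member is accounted for. The rule for full values took the coding and rRNA genes, the 4 tRNA genes per strand with the highest mean CPM, and the 4 nuclear list genes with the smallest p in each contrast. The Clopper-Pearson interval of 95% and the limit of 3 counts for a value of 0 cover counting error only.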

Additional observations from a re-analysis of the deposited data

Results flagged for a closer look

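A spleen column stood above the other 7 in the mt-Nd6 strand index, at 8.88 with the next at 7.62, a gap of 0.603 of the whole range. A spleen column stood below the other 7 in mt-Nd5, at 2237 CPM with the next at 4668 CPM, a gap of 0.658 of the range. The latter was the column with the lowest mitochondrial share, 1.02%. The columns are different ones. Of 34 groups of spleen or bone marrow values examined these 2 stood apart by Dixon's criterion, a criterion that chance alone meets in about 1 of 20 groups. The 12 tumour columns are too many for that criterion and were not examined by it. Among them the column of 54117 counts had the highest mt-Nd5 level, 9443 CPM, beside a median of 1972 CPM.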

How the results depend on the processing

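No paired analysis was possible because the count columns carry no animal or genotype, although sample titles share mouse numbers across organs. The number of mitochondrial genes called was 2 in place of 4 in bone marrow against spleen with library totals, and 8 in place of 5 in tumour cells against bone marrow with no filter. Nuclear list calls in the latter were 9 with DESeq2 and 10 with no filter, in place of 5. All-gene calls in the 3 contrasts rose from 1953, 3471 and 3612 to 3587, 6850 and 7418 with DESeq2 and to 4768, 8361 and 8617 with no filter, which tests more genes. Signs changed for mt-Rnr2 in bone marrow minus spleen with library totals (0.0513), and for mt-Cytb in tumour cells minus spleen with RLE factors (-0.00092), DESeq2 (-0.0067) and only 2 tissues (-0.0876). In tumour cells minus bone marrow they changed for mt-Nd2 with RLE (-0.0281), DESeq2 (-0.0410), no filter (-0.0322) and only 2 tissues (-0.0236), and for mt-Nd5 with DESeq2 (-0.0179), no filter (-0.0738), only 2 tissues (-0.0068) and without the shallowest column (-0.19). None of these values passed the test in either fit. The median of all genes moved by over 0.1 with library totals (0.105 and 0.103 against spleen), with DESeq2 (-0.127 in bone marrow minus spleen, 0.119 in tumour cells minus bone marrow), with no filter (-0.128) and without the shallowest column (0.107), the last 2 in tumour cells minus spleen. Column measures that came to pass were the share on heavy-strand genes in bone marrow minus spleen (-0.73), the share without the shallowest column in tumour cells minus bone marrow (-0.44), the flanking-gene index (0.60 and -0.74) and the index with a pseudocount of 5 in tumour cells minus bone marrow (-0.65). The index changed sign on the 6-gene base in bone marrow minus spleen (-0.0281), as did the tRNA index with a pseudocount of 5 (0.0708). With a pseudocount of 5 the tRNA index in tumour cells minus spleen was -0.97 in place of -1.79. It lost its calls on medians (-0.62 and -0.38) and, against bone marrow, without the shallowest column (-1.34). The cause was not tested. The tRNA genes, with 0 to 32 counts per strand and column, are limited by depth.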
